A study of Homo sapiens with 6 samples.

Results

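The genes described here are the zinc response genes of a myeloma cell line, namely the transcription factor MTF1, the metallothioneins MT1E, MT1F, MT1G, MT1M, MT1X and MT2A, and the zinc exporter SLC30A1. They were chosen by symbol from the table of gene counts, and 6 of the 8 symbols have a row among its 21850 genes. MT1G and MT1M have no row, under these symbols or a synonym, and were not taken as 0. RNA was sequenced from MM.1S, an established human multiple myeloma cell line, on day 3 after infection with a lentivirus. The shNT libraries (n = 3, genotype WT in the labels) carry a scramble hairpin, and the shPRKCN libraries (n = 3, genotype PRKCN knockdown) carry a hairpin against PRKCN, which encodes the kinase protein kinase D3. Both groups were therefore infected cells of the same line. The labels do not say which PRKCN hairpin was used, and nothing says that the libraries came from separate cultures, so p-values measure the spread between these libraries, which may be technical. The comparison of shPRKCN with shNT cells asks which transcripts change when the kinase is reduced.

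In human cells, zinc is sensed by MTF1, a zinc finger protein that in the presence of excess zinc binds metal response elements in promoters. Its best known targets are the metallothioneins, small cysteine-rich proteins that hold zinc and copper, and SLC30A1, which carries zinc out of the cell across the plasma membrane. Plasma cells and the myeloma cells derived from them secrete much protein, and other carriers of the SLC30 and SLC39 families move zinc into and out of the compartments of their secretory pathway.

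The promoters of MT1X, MT2A and SLC30A1 are shown first, so that the sequence of a gene that rose, of one that did not pass the test and of one that fell can be set beside their values. The metal response element has a short core, searched here on both strands as TGCACNC or TGCGCNC in the 250 bases before the RefSeq start of each gene (GRCh38.p14). Sequences are written 5′ to 3′ on the strand of the gene, capitals mark the core, and a core on the opposite strand is read there as its reverse complement. The regions are chr16:56682220-56682469 (plus strand) for MT1X, chr16:56608334-56608583 (plus strand) for MT2A and chr1:211579162-211579411 (minus strand) for SLC30A1.
MT1X: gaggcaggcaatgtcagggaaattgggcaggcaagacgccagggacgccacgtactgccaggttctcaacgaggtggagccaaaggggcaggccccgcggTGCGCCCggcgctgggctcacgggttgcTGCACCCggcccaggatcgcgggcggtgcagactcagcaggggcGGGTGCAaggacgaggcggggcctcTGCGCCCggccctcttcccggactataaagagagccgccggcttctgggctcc
MT2A: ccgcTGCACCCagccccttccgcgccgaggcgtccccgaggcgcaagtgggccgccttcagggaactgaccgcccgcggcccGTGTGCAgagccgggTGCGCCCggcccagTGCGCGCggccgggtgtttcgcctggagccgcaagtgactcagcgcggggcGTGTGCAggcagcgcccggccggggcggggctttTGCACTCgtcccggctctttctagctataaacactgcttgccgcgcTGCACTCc
SLC30A1: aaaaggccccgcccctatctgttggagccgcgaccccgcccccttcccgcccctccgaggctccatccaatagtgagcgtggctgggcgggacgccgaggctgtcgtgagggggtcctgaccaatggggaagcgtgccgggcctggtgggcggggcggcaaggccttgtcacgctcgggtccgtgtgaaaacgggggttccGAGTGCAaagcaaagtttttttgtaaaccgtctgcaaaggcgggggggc
The MT1X window held 4 cores, 3 on the strand of the gene and 1 on the other, between 150 and 47 bases before the start. The MT2A window held 7 cores, 5 on the strand of the gene and 2 on the other, between 246 and 2 bases before the start. SLC30A1 had 1 core, on the opposite strand at 49 to 43 bases before the start, and the same window of MTF1 (chr1:37859593-37859842, minus strand) had 0. No cores overlapped. Among 27305 promoters of this length, 24.7% held at least 1 core, 0.366% at least 4 and 0.0330% at least 7. These matches are descriptions of sequence and say nothing of binding. The start of SLC30A1 in GENCODE release 29 lies 419 bases inside the RefSeq start, and that of MT2A 385 bases before it, so the counts hold for the RefSeq windows alone. A promoter sequence was at hand for 4 of the 8 genes, MTF1, MT1X, MT2A and SLC30A1.

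Depth was alike, with 35625564 to 37730003 counts per shNT library and 36913919 to 37478529 per shPRKCN library, and no library stood apart from its group. PRKCN, listed by its current symbol PRKD3, was at 41.0% of the shNT level in shPRKCN cells (log2 fold change −1.29, SE 0.034, n = 3 per group), with every shPRKCN library below every shNT library. All 9 plasma cell markers had more than 3 counts in every library, with a summed level of 9207 to 9327 CPM in shNT and 7920 to 8044 CPM in shPRKCN libraries, where CPM is the count relative to the TMM-scaled library size. JCHAIN makes up most of that sum and did not pass the test. By the limits given below, 4 of the 9 markers were called lower and 0 higher, against 10.6% and 6.15% of all genes tested. IRF4 was at 27.7%, XBP1 at 41.1%, TNFRSF17 at 45.7% and SLAMF7 at 51.2% of the shNT level. Among those not called, SDC1 was at 113%, with every shPRKCN library above every shNT library. PRDM1 was at 68.7% and MZB1 at 85.5%, each with every shPRKCN library below every shNT library. SDC1, PRDM1 and MZB1 passed edgeR's adjusted p (2.09e-06, 3.42e-22 and 7.41e-08) but not the fold limit. CD38 was at 99.1% and JCHAIN at 101%, and in both the groups overlapped. B cell, monocyte and stromal markers summed to at most 0.299 CPM in each library, and epithelial markers to 0.935 to 2.10 CPM in shNT and 0.589 to 1.78 CPM in shPRKCN libraries. Of the erythroid markers only HBB has a row, at 2.18 to 3.87 CPM in shNT and 0.921 to 1.10 CPM in shPRKCN libraries. T cell markers, mostly CD3E, summed to 10.7 to 11.98 CPM in shNT and 27.5 to 31.3 CPM in shPRKCN libraries. The part of these shifts in the results below was not tested, and in bulk RNA fewer cells with a transcript and less of it per cell cannot be told apart.

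After PRKCN knockdown MT1X, the most abundant of the 4 metallothioneins with a row, was higher and SLC30A1 was lower, while MTF1 itself was slightly higher and MT2A did not pass the test. Of the 8 genes, 4 had enough counts to be tested by edgeR's quasi-likelihood test. A gene was called at an adjusted p (Benjamini-Hochberg over the 13971 genes tested) under 0.05 and a log2 fold change larger than 0.58 in size. By these limits 1 of the 4 was called higher and 1 lower, against 859 genes (6.15%) called higher and 1475 (10.6%) called lower among all genes tested. At the adjusted p alone 2 were higher and 1 lower, against backgrounds of 26.5% and 27.8%. In all 4 the groups did not overlap, 2 with every shPRKCN library above and 2 with every shPRKCN library below, which held for 29.0% and 29.8% of all genes tested.

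MTF1 (chromosome 1, 37809574 to 37859592, minus strand, GRCh38.p14) is the zinc sensor of this group. Its level was 36.0, 35.9 and 31.8 CPM in shNT libraries and 42.2, 39.5 and 40.8 CPM in shPRKCN libraries. Every shPRKCN library was higher, by a small margin. The means were 34.6 ± 2.40 CPM (SD, n = 3) in shNT and 40.8 ± 1.37 CPM (SD, n = 3) in shPRKCN cells, a ratio of 1.18 (95% interval 1.09 to 1.28). The log2 fold change of 0.24 (SE 0.057) passed edgeR's test at an adjusted p of 0.000225 but not the fold limit, so the gene was not called. Per length, MTF1 was a transcript of middling level, with 3.87 ± 0.271 FPKM (fragments scaled to gene length and library total; SD, n = 3) in shNT cells, at or above 46.0% of the genes tested.

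MT1X (chromosome 16, 56682470 to 56684196, plus strand) encodes a metallothionein of the MT1 group. It was counted 53, 56 and 62 times in shNT libraries and 102, 112 and 130 times in shPRKCN libraries. The lowest shPRKCN library was thus well above the highest shNT library, although both groups rest on few reads. Scaled to depth, the level rose from 1.56 ± 0.0839 CPM (SD, n = 3) to 3.06 ± 0.348 CPM (SD, n = 3), a ratio of 1.96 (95% interval 1.46 to 2.62). The log2 fold change was 0.97 (SE 0.212, edgeR adjusted p = 7.68e-05), and MT1X was called higher without each library in turn (log2 0.89 to 1.04). Its 4 GENCODE transcripts together hold 1867 different 50-base stretches. Of these, 18.3% also occur in another gene, and 3.64% in another metallothionein copy, with AC026461.1 first among the other genes by shared stretches. The MT1X length that follows from its counts and FPKM is 404 bases, which can hold only part of the 1867 stretches. The shared part of that length may be larger and was not computed. How reads from shared stretches were counted is not given in the sources used here, so the MT1X value carries that uncertainty.

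MT2A (chromosome 16, 56608584 to 56609497, plus strand) encodes, of the 4 metallothioneins with a row, the other one with enough counts to test. It was counted 33, 31 and 30 times in shNT libraries and 27, 19 and 25 times in shPRKCN libraries. Each shPRKCN library was below each shNT library, opposite in direction to MT1X. The means were 0.860 ± 0.0681 CPM (SD, n = 3) and 0.631 ± 0.109 CPM (SD, n = 3), and the ratio of 0.735 has a 95% interval of 0.444 to 1.22. With a log2 fold change of −0.44 (SE 0.365) and an edgeR adjusted p of 0.313, a difference was not detectable at this depth. Over the alternatives the adjusted p ran from 0.0135 to 0.559, and it was under 0.05 with limma on log2(FPKM + 1), on log2(FPKM + 0.1) and on log2(FPKM + 1) with a minimum FPKM of 1, always without passing the fold limit. Among 11656 other genes averaging 50 counts or more, the profiles over the 6 libraries most like that of MT2A were those of PRKAR2B, SYNM and LOC100506606, with root mean square differences of 0.0759, 0.0760 and 0.0778 on the log2 CPM scale. MT2A itself has fewer counts than any of the genes it was compared with, so the ranking is a rough one.

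MT1E and MT1F, further metallothioneins of the MT1 group, were barely detected. MT1E (chromosome 16, 56625781 to 56627112, plus strand) was counted 7, 1 and 0 times in shNT and 0, 1 and 6 times in shPRKCN libraries. MT1F (chromosome 16, 56657959 to 56659303, plus strand) was counted once in each shNT library, and 0, 9 and 0 times in shPRKCN libraries. In each gene 1 or 2 libraries hold most of the reads and the groups overlap, so neither a direction nor a fold is given. A count of 0 allows up to 3 counts, an allowance that covers counting error only. Neither gene passed the filter on low counts, and without the filter edgeR gave adjusted p-values of 0.903 for MT1E and 0.434 for MT1F. MT1G (chromosome 16, 56666730 to 56668065) and MT1M (56632659 to 56633981) have no row, nor do the 11 other metallothionein symbols looked for, MT1A, MT1B, MT1H, MT1L, MT1HL1, MT1JP, MT1DP, MT1IP, MT1CP, MT3 and MT4.

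Since reads of near-identical copies can be split among them, the 4 listed metallothioneins were also summed. The sum was 94, 89 and 93 counts in shNT libraries and 129, 141 and 161 counts in shPRKCN libraries. These 4 rows together were higher in each shPRKCN library than in each shNT library. Metallothioneins with no row are not in the sum. The means were 2.52 ± 0.125 CPM (SD, n = 3) and 3.83 ± 0.394 CPM (SD, n = 3), a ratio of 1.52 that was given no test. The direction of the sum is that of MT1X, and without MT1X the log2 ratio of the sum turned from 0.60 to −0.32.

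The 4 listed copies were also compared as shares of their summed level, called the pool here. Per length, MT1X held 58.3%, 63.2% and 66.6% of the summed metallothionein FPKM in shNT libraries and 78.9%, 80.3% and 82.1% in shPRKCN libraries. The groups did not overlap, and the means were 62.7 ± 4.17% (SD, n = 3) and 80.4 ± 1.56% (SD, n = 3). MT2A held 34.8 ± 2.09% (SD, n = 3) of the pool in shNT and 16.9 ± 3.76% (SD, n = 3) in shPRKCN cells. Shares of the same total depend on each other, so a larger MT1X share lowers that of the other copies. The MT2A share is therefore not a separate result, and the MT2A level itself did not pass the test. Counting error alone is wide for such shares. The exact Clopper-Pearson 95% intervals of the MT1X share of counts were 45.8% to 66.6%, 52.03% to 72.9% and 56.1% to 76.1% in shNT libraries and 71.03% to 85.7%, 71.8% to 85.8% and 73.8% to 86.5% in shPRKCN libraries, so those of the second and the third shNT library overlap those of shPRKCN libraries. The difference between the MT1X and MT2A fold changes was not tested.

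SLC30A1 (chromosome 1, 211571568 to 211579161, minus strand), the zinc exporter of the plasma membrane, was the most abundant of these genes. It was counted 10765, 11585 and 11256 times in shNT libraries and 7589, 6927 and 7574 times in shPRKCN libraries. Every shPRKCN library was far below every shNT library, and the spread within each group was small. The level fell from 307 ± 7.43 CPM (SD, n = 3) to 196 ± 8.88 CPM (SD, n = 3), which left 64.0% of the shNT level (95% interval of the ratio 0.609 to 0.673). The log2 fold change was −0.64 (SE 0.036, edgeR adjusted p = 3.86e-25). Its 95% interval of −0.72 to −0.57 reaches past the fold limit, but SLC30A1 was called lower in every alternative and without each library in turn (log2 −0.67 to −0.61). Of the 5425 stretches of 50 bases in its GENCODE transcript, 0 occur in another gene.

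Per length, SLC30A1 stood far above the rest of the group. Its FPKM was 51.7 ± 1.33 (SD, n = 3) in shNT and 33.5 ± 1.85 (SD, n = 3) in shPRKCN cells. In shNT cells that was at or above 93.0% of the genes tested, against 46.0% for MTF1, 45.8% for MT1X and 35.3% for MT2A. MTF1 at 3.87 ± 0.271 and MT1X at 3.83 ± 0.206 FPKM (SD, n = 3) did not differ beyond their spread in shNT cells, MT2A followed at 2.13 ± 0.167 FPKM, and MT1E and MT1F stayed at or under 0.263 FPKM in each shNT library. In shPRKCN cells MT1X, at 7.61 ± 0.890 FPKM (SD, n = 3), was above MTF1 at 4.63 ± 0.198 FPKM (SD, n = 3), and MT2A was at 1.58 ± 0.287 FPKM (SD, n = 3). The order of SLC30A1 first and MT2A behind MTF1 and MT1X was thus the same in both groups.

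The rest of the zinc exporters are the other SLC30 genes and TMEM163, which also exports zinc. Of 10 symbols 8 have a row and 5 were tested, of which 3 rose and 1 fell at the adjusted p, where 26.5% of all genes tested rose and 27.8% fell, and the median log2 fold change was 0.16 against 0.0012 over all genes tested. None was called, by edgeR or by DESeq2, nor with an unadjusted p under 0.05 in place of the adjusted one. SLC30A5, which loads zinc into the early secretory pathway, rose from 11.05 ± 0.118 to 12.5 ± 0.429 FPKM (SD, n = 3), a log2 fold change of 0.16 (SE 0.048, edgeR adjusted p = 0.00379). SLC30A9, a zinc transporter of mitochondria, had 9.76 ± 0.216 and 10.04 ± 0.727 FPKM (SD, n = 3; edgeR adjusted p = 0.732). SLC30A6, the partner of SLC30A5, is named after its values were seen, since its log2 fold change of 0.58 (SE 0.055, edgeR adjusted p = 1.78e-14) lay just under the fold limit before rounding. It was called in 4 of the 6 fits that left out 1 library, those without the first or second shNT or the second or the third shPRKCN library (log2 0.53 to 0.61 over the 6), and in 4 of 10 other alternatives.

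SLC30A1 was the larger part of the family total. It held 65.3 ± 0.460% (SD, n = 3) of the summed FPKM of the 8 listed SLC30 genes in shNT cells and 51.7 ± 0.306% (SD, n = 3) in shPRKCN cells. The summed level was 79.2 ± 1.84 FPKM (SD, n = 3) and 64.9 ± 3.32 FPKM (SD, n = 3). The sum over the 13 listed SLC39 importers was 132 ± 1.61 FPKM in shNT and 141 ± 2.54 FPKM in shPRKCN cells (SD, n = 3). These family sums were added after the values were seen and were given no test.

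**Figure D1:**
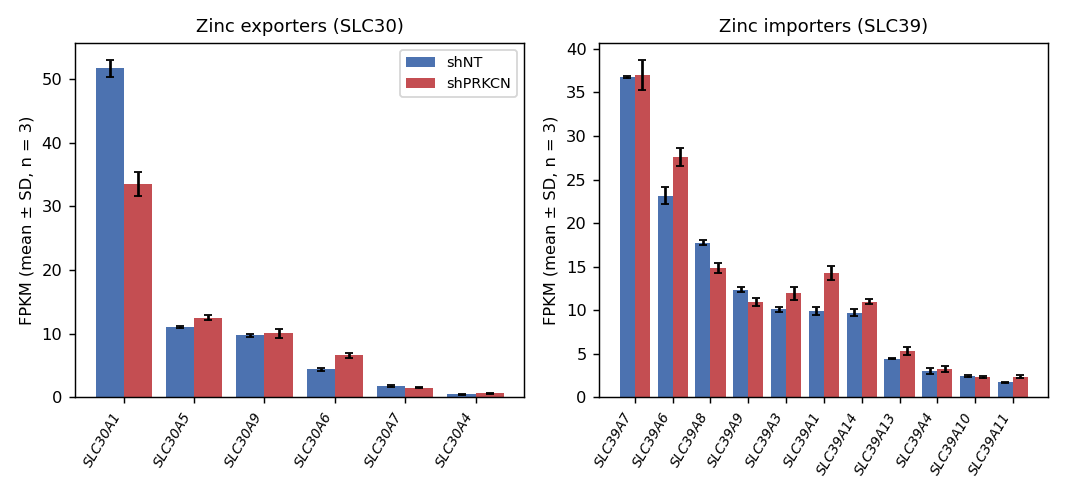
FPKM of the zinc exporters of the SLC30 family (left) and the importers of the SLC39 family (right) with a mean above 0.1 FPKM in shNT cells; bars are the mean of 3 shNT (blue) or 3 shPRKCN (red) libraries, error bars the SD. SLC30A1 stands above every other exporter in both groups and drops from 51.7 to 33.5 FPKM.

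The SLC39 importers bring zinc into the cytosol, and none of them passed the fold limit. Of 14 symbols 13 have a row and 11 were tested. At the adjusted p 6 of these rose (54.5%, against 26.5% of all genes), 2 fell (18.2%, against 27.8%) and 3 did not pass, and the median log2 fold change was 0.15. None was called by edgeR or DESeq2, also with an unadjusted p. SLC39A7, which releases zinc from the endoplasmic reticulum, was the most abundant importer and had 36.8 ± 0.129 and 37.0 ± 1.74 FPKM (SD, n = 3; edgeR adjusted p = 0.853). SLC39A6, a zinc importer of the plasma membrane, rose from 23.1 to 27.6 FPKM (log2 fold change 0.23, SE 0.043, edgeR adjusted p = 3.48e-06). Chosen after their values were seen, SLC39A1 had the largest rise of the list (9.93 ± 0.480 to 14.3 ± 0.812 FPKM, log2 0.51) and SLC39A8 the largest fall (17.8 ± 0.246 to 14.9 ± 0.550 FPKM, log2 −0.28), both without overlap of the groups.

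Of 8 other symbols that have been linked to MTF1, 7 have a row and 5 were tested. Of these 3 rose, 0 fell and 2 did not pass the adjusted p in edgeR, as in DESeq2 and at an unadjusted p, beside the 26.5% and 27.8% of all genes that rose and fell. The median log2 fold change was 0.27, and none was called by any of these. SELENOH, a nuclear selenoprotein, had 54.4 ± 1.88 and 53.8 ± 0.918 FPKM (SD, n = 3; edgeR adjusted p = 0.547). CSRP1, a LIM domain protein that binds zinc, rose from 26.1 ± 1.69 to 31.8 ± 0.579 FPKM (SD, n = 3; log2 0.27, SE 0.048, edgeR adjusted p = 2.48e-06). GCLC, the catalytic subunit of the first enzyme of glutathione synthesis, is added after its values were seen, with 7.34 ± 0.286 and 9.72 ± 0.801 FPKM (SD, n = 3; log2 0.39, SE 0.060, edgeR adjusted p = 8.66e-08).

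Copper, the other metal that metallothioneins bind, has carriers and chaperones of its own. Of 20 copper handling symbols 18 have a row and 16 were tested, of which 4 rose (25%), 4 fell (25%) and 8 did not pass the adjusted p, shares near the 26.5% and 27.8% of all genes, and the median log2 fold change was 0.09. ATOX1, the chaperone that hands copper to the copper ATPases, was at 52.4, 57.1 and 58.7 CPM in shNT and at 90.9, 93.9 and 86.8 CPM in shPRKCN libraries. All 3 shPRKCN libraries were higher, and ATOX1 was called (log2 0.69, SE 0.047, edgeR adjusted p = 5.49e-21) without each library in turn. STEAP3, a reductase of iron and copper, was called at 4.18 ± 0.242 against 6.39 ± 0.557 FPKM (SD, n = 3; log2 0.59, SE 0.068, edgeR adjusted p = 1.09e-11). That call was lost without the first shNT library (log2 0.58), the second (0.56), the first shPRKCN library (0.58) or the second (0.53), each value lying under the limit of 0.58 before rounding. Named after their values were seen, COX17, a copper chaperone of mitochondria, fell from 76.0 ± 6.10 to 53.5 ± 2.73 FPKM (SD, n = 3; log2 −0.53), and SLC31A1, the copper importer of the plasma membrane, from 10.04 ± 0.381 to 7.43 ± 0.477 FPKM (SD, n = 3; log2 −0.45).

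Over the union of these exporters, importers, MTF1-linked and copper genes with the metallothioneins that have no row, 37 of 63 symbols were tested. At edgeR's adjusted p 16 rose (43.2%) and 7 fell (18.9%), where 26.5% and 27.8% of all genes tested did. By both limits 2 were called higher (5.41%) and 0 lower, against the 6.15% and 10.6% of all genes, and DESeq2 or an unadjusted p with the fold limit gave the same 2 and 0. STEAP3 and SLC30A6 lie so near the limit that the count of genes called higher was 1 without the first shPRKCN library and 3 without the third. COX17 was called lower without the first shNT library (log2 −0.59), and SLC31A2, a relative of SLC31A1, without the second shPRKCN library (log2 −0.60).

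**Figure D2:**
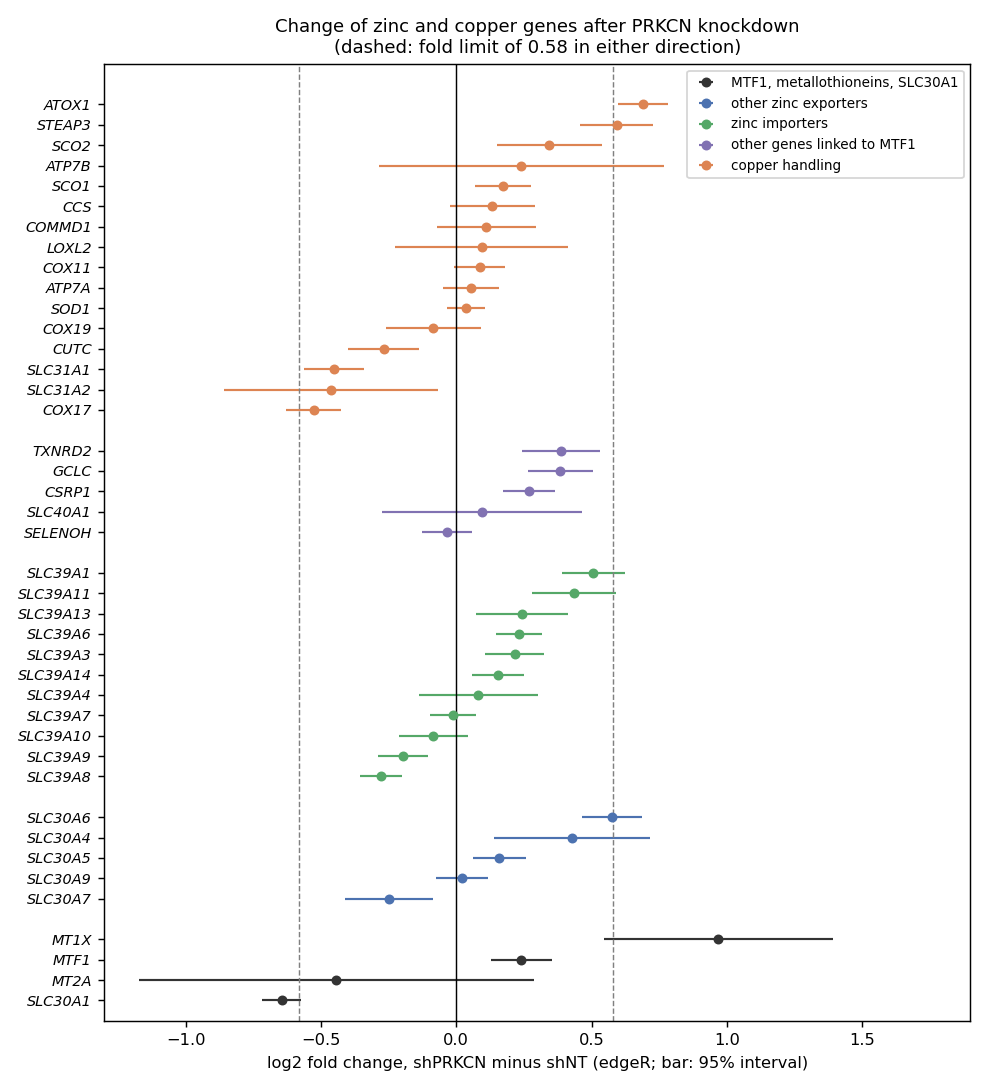
Log2 fold change (shPRKCN minus shNT, edgeR; points) with its 95% interval (bars) for the tested zinc and copper genes, by list; dashed lines mark the fold limit of 0.58 in either direction. MT1X at 0.97 and SLC30A1 at −0.64 lie outside the limits, as do ATOX1 and STEAP3, and the other genes lie between them.

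The metallothioneins named above, apart from MT1HL1, lie in 1 cluster on chromosome 16, and a list of genes on its flanks was compared with them. RefSeq places 16 metallothionein genes and pseudogenes, 11 of them coding, within 119.1 kb (56565073 to 56684196), and 4 of these have a row. Of the other genes within this stretch 1 has a row, the long noncoding RNA LOC101927536, with 1 count in the third shPRKCN library and 0 in each other library. MT1X starts 73.9 kb from MT2A. Of 14 symbols looked for on the flanks 11 have a row under that symbol. CFAP263, 1641 kb from MT2A, has a row only under its synonym CCDC113, which was not used. Of the 11, 9 were tested, of which 2 rose (22.2%), 2 fell (22.2%) and 5 did not pass the adjusted p. These shares were near the 26.5% and 27.8% of all genes. The median log2 fold change was −0.02, and 0 were called by edgeR, by DESeq2 or at an unadjusted p. The values ran from −0.61 to 0.135, the lowest lying past the fold limit without passing the adjusted p. HERPUD1, a gene of the endoplasmic reticulum stress response 323.6 kb from MT2A, fell from 133 ± 1.28 to 97.3 ± 1.71 FPKM (SD, n = 3; log2 −0.47, SE 0.034, edgeR adjusted p = 8.76e-20). NUDT21, a factor of messenger RNA 3′ end processing on the other side, fell from 29.0 ± 1.25 to 22.5 ± 0.825 FPKM (SD, n = 3; log2 −0.39, SE 0.041, edgeR adjusted p = 7.21e-13). NUP93, the nearest gene of this list beyond MT1X, had a log2 fold change of 0.10 (edgeR adjusted p = 0.117), and of the genes plotted along this stretch MT1X was the only one called.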

How the data were processed

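RNA-seq of 6 MM.1S libraries (3 shNT, 3 shPRKCN, grouped by the labels) was analysed. The authors deposited raw counts of 21850 genes and FPKM values, which follow from the counts, the library totals and 1 length per gene. The submitters' processing notes name FastQC, HISAT2, StringTie and GRCh38.p14 without roles, and the counter, annotation and strandedness are not given in the sources used here, so overlapping or near-identical genes stay uncertain. After TMM scaling and filterByExpr, edgeR 4.0.16 (R 4.3.3) gave the quasi-likelihood test, with the limits of the study's methods (adjusted p under 0.05, log2 fold change beyond 0.58). The median log2 fold change of all genes was 0.0012 (0.0036 with RLE, 0.0091 with upper-quartile and 0.021 with library-size scaling). DESeq2 1.42.0 and limma 3.58.1 were alternatives. Library totals were 35625564 to 37730003 counts, and a fixed floor of 3 counts per library was used. Libraries of a group differed by a chi-square per degree of freedom of 3.38 to 4.80 and groups by 63.8 to 70.2, so none was a repeat. On simulated data 190 of 197 tested genes changed by log2 1.5 were recovered, with 1 false call among 13813 genes. That planted change is larger than the change of any zinc response gene tested, so recovery of changes of their size was not measured.

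Genes and lists were chosen with earlier results of these data known. Named are the zinc response genes, PRKD3, the 3 genes most like MT2A, and in each other list the called genes or, with fewer than 2 called, the 2 with the highest mean FPKM; others are marked as chosen after their values were seen. Promoters, positions and the start sites compared with GENCODE release 29 came from RefSeq (GRCh38.p14) tables and GENCODE.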

Additional observations from a re-analysis of the deposited data

How the results depend on the processing

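MT1X stayed called higher, SLC30A1 called lower, and MTF1 and MT2A not called, in all 16 alternatives run on each, with log2 fold changes of 0.83 to 1.04, −0.67 to −0.61, 0.18 to 0.27 and −0.55 to −0.28. Without the fold limit 2 of the zinc response genes were called higher, and over all genes 3700 were called higher and 3877 lower. With limma on log2(FPKM + 1), which shrinks the folds of low genes, 317 genes were called higher and 651 lower, and 310 and 635 with a minimum FPKM of 1. Of the other metal genes, 1 was called higher in each of these 2 limma fits, and 16 higher and 7 lower without the fold limit. Leaving out 1 library at a time, the zinc response genes called remained 1 higher and 1 lower, the metal genes called were 1 to 3 higher and 0 to 1 lower, and all genes called were 815 to 874 higher and 1437 to 1487 lower. The log2 ratio of summed metallothioneins ran from 0.53 to 0.67 without 1 library and reversed to −0.32 without MT1X, the most abundant listed copy. Same-numbered libraries did not deviate together (correlations −0.06, −0.03 and −0.03), so the numbers do not pair them. With the replicate number as a block, 854 genes were called higher and 1463 lower, MT1X had a log2 fold change of 0.97 and SLC30A1 of −0.64, and no call among the zinc response or metal genes changed in number. Depth limits the metallothioneins: MT2A had at most 33 counts in a library, and MT1E and MT1F at most 9.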

Other observations

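The core of the metal response element was also counted in the promoters of all tested genes, as a description with no test. Among 11035 tested genes with a promoter sequence, 5.88% were called higher and 10.5% lower (median log2 fold change 0.0003). Of the 55 whose 250 bases before the start held at least 4 cores, as those of MT1X and MT2A do, 4 were called higher and 7 lower, with a median of −0.09. Of the 243 with at least 3 cores, 11 were called higher and 21 lower (median −0.0056). Of the 7416 with no core, 6.31% were called higher and 10.7% lower. Promoters of metallothioneins that have no row in the table also held cores, with 8 in MT1H, 3 in MT1B and 3 in MT4.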
